A study of Mus musculus with 6 samples.

Results

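DNA repair genes keep the genome intact in dividing cells, and the colonic crypt is among the most rapidly renewed tissues of the body. The 78 genes described here were found by symbol: 80 rows of the 55487 genes in the files carried a name of the repair families sought, and 78 of these had at least 10 counts in 3 or more of the 6 libraries. The 2 rows left out were Rad51ap2, a meiotic recombination gene, with 1, 1 and 5 counts in mutants and 0 in every control, and Rad21l, a meiotic cohesin subunit, with 1, 1 and 0 counts in mutants and 5, 2 and 3 in controls. The members just inside the limit were Msh4, with 16, 5 and 11 counts in mutants and 1, 4 and 12 in controls, and Neil2, with 4, 3 and 4 counts in mutants and 10, 20 and 24 in controls. Neil2 passed through the controls alone and was too low for the test of genotype, so 77 members were tested.

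The libraries came from purified colonic crypt cells of C57BL/6 mice at 4 weeks of age. The mutant group held 3 libraries with the genotype M14(f/f);Villin-Cre and the control group 3 libraries with the genotype M14(f/f), so the mice of both groups carried the floxed alleles and only mutants carried Cre. M14 is read here as Mettl14, the RNA-binding partner of the m6A methyltransferase METTL3, and the Villin promoter drives Cre throughout the gut epithelium. Loss of the gene and presence of Cre cannot be told apart in this design. The labels do not say whether animals were pooled, and no label ties a mutant to a control.

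Mettl14 (chr3:123368297-123386108, minus strand on GRCm38) was measured at 13.99, 13.8 and 10.5 CPM in mutants 1 to 3, against 26.2, 20.9 and 22.0 CPM in controls 1 to 3 (counts relative to the TMM-scaled size of the library). The groups did not overlap, and Mettl14 fell (log2 fold change -0.85, SE 0.13, adjusted p = 6.22e-04 by edgeR's quasi-likelihood test). Libraries held 24181631 to 34842591 counts in mutants and 32165546 to 35183636 in controls. Xist, the RNA of the inactive X chromosome, had 16870, 1328 and 55 counts in mutants 1, 2 and 3, against 45, 44 and 55 in controls. The Y chromosome had 904, 5351 and 8277 raw counts in mutants and 9034, 9850 and 8392 in controls, and mutant 2 was the smallest library. Xist set mutants 1 and 2 apart from the other 4 libraries. Relative to library size, the Y chromosome set only mutant 1 clearly apart. If Xist and the Y chromosome are read as marks of sex, female material was found only among mutants. Sex and genotype then cannot be fully told apart in these groups. Some counts of calls are also given without mutants 1 and 2. All 15 epithelial markers were detected, with a summed level of 21956 to 23577 CPM in mutants and 35015 to 38771 CPM in controls. Of these 8 fell, among them Slc26a3 and Car1 of mature colonocytes and Muc2 of goblet cells, and Cdh1 rose. Muc2 averaged 6296 CPM in mutants and 14083 CPM in controls, and Car1 2076 CPM in mutants and 5613 CPM in controls. Their drops were the largest in that sum, while Cdx1, Cdx2 and Krt18 were among the markers that did not pass. Of 14 markers of macrophages and dendritic cells 12 rose and C1qa fell, with summed levels of 51.0 to 75.1 CPM in mutants and 20.45 to 26.5 CPM in controls. Of 11 markers of fibroblasts and muscle 8 fell, with summed levels of 157 to 181 CPM in mutants and 292 to 334 CPM in controls. Of 5 neutrophil markers tested 4 rose, with sums of 13.3 to 39.9 CPM in mutants and 9.36 to 13.1 CPM in controls. Of 6 endothelial markers 2 rose and 1 fell, with sums of 20.5 to 22.9 CPM in mutants and 12.5 to 13.6 CPM in controls, and of 10 T and NK cell markers tested 3 rose and 1 fell, with sums of 9.49 to 14.1 CPM in mutants and 9.44 to 12.9 CPM in controls. Of 3 B and plasma cell markers tested 1 fell, with sums of 149 to 156 CPM in mutants and 170.0 to 193 CPM in controls. None of these markers was at 0 in all libraries. Their part in the results on repair genes was not tested. In such bulk libraries fewer cells of a type and less RNA per cell cannot be told apart.

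Repair runs along several routes that share few parts. Homologous recombination copies an intact sister strand across a double-strand break, whereas end joining ligates the broken ends directly. Mismatch repair removes replication errors, base excision removes single damaged bases, nucleotide excision removes bulky lesions, and the Fanconi anemia pathway unhooks crosslinks between strands. The kinases ATM and ATR signal damage to the cell cycle. Loss of mismatch repair is a well-known cause of inherited colon cancer.

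Promoters of 60 of the 78 members were found in a RefSeq table (GRCm38.p6) that gives 250 bases before and 50 bases after each start. The E2F motif, searched as TTTGGCGC or TTTCCCGC on both strands, is the binding sequence of the factors that turn on genes at the entry into S phase. It stood in the promoters of 8 of these 60 genes (13.3%), against 3.08% of the 11968 tested genes with a promoter in the table and 1.80% of all 27025 genes there. Of the 8, Brca2 and Msh6 rose in mutants, Chek2 and Msh3 fell, and Fancg, Msh5, Rad51c and Xrcc6 did not pass the test. The promoters of Brca2, Msh6 and Chek2 are shown from 250 bases before the start to 30 bases into the transcript, 5′ to 3′ on the gene's strand, with the motif in capitals. They are shown because TTTCCCGC, read on either strand, stood in the windows of Brca2 and Msh6, which rose, and of Chek2, which fell. It lay before the start in Brca2 and Chek2 and just after the start, within the transcript, in Msh6.
Brca2 promoter (chr5:150522371-150522650, plus strand): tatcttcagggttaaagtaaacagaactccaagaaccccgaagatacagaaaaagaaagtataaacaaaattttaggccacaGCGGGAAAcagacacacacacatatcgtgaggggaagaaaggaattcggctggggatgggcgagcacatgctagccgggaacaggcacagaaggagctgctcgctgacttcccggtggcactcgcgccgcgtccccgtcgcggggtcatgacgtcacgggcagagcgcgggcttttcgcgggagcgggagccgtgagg
Msh6 promoter (chr17:87974800-87975079, plus strand): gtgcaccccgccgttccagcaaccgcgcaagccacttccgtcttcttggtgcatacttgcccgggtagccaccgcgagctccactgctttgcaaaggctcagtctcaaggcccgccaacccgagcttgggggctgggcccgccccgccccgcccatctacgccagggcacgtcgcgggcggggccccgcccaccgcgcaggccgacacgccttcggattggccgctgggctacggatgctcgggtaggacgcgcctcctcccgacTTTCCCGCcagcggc
Chek2 promoter (chr5:110839733-110840012, plus strand): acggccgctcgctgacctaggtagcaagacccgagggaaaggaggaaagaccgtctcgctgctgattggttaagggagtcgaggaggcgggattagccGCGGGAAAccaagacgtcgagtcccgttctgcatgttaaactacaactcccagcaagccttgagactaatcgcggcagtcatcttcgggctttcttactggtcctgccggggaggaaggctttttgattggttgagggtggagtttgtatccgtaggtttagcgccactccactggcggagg
By direction, the motif was found in 2 of 17 members that rose, 2 of 9 that fell and 4 of 34 that did not pass. Of 2 other motifs searched on both strands, CCAAT stood in 55.0% of the 60 genes, against 42.7% of tested genes, and TTTGAA, the CHR element of genes of late cell cycle, in 5%, against 15.1%. None of these motifs contains another, and a match describes the letters of the window, not a site in use.

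Of the 77 tested members 21 rose and 15 fell in mutants, and 41 did not pass the threshold of adjusted p 0.05. That is 46.8% of members called, near the 46.3% of all 18539 tested genes. By direction, 27.3% of members rose, against 23.5% of all genes, and 19.5% fell, against 22.8% of all genes. All 77 members have a coding exon, whereas 4298 of the tested genes are annotated as a type other than protein coding. Among the 14240 tested genes with a coding exon 26.2% rose and 26.4% fell. Next to these, the share of members that rose was similar and the share that fell was lower. Shares of all tested genes given below are over all 18539. The changes were small: the median size of the log2 fold change was 0.25 among members and 0.41 among all genes. Only Brca2, Xrcc2, Ercc6l and Rad9b passed the threshold with more than a 2-fold change, where 16.6% of all genes did. The median log2 fold change was -0.042 for members and 0.0063 for all genes. With a change of more than 1.5-fold 7 members rose and 3 fell, where 27.5% of all genes passed that limit in either direction. All mutants lay above all controls for 26 members and below them for 22, that is for 62.3% of members, against 56.9% of all genes. Without mutants 1 and 2, 10 members rose and 17 fell, in a fit where 16.2% of 20731 genes rose and 17.0% fell. Differences between members were not tested.

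**Figure D1:**
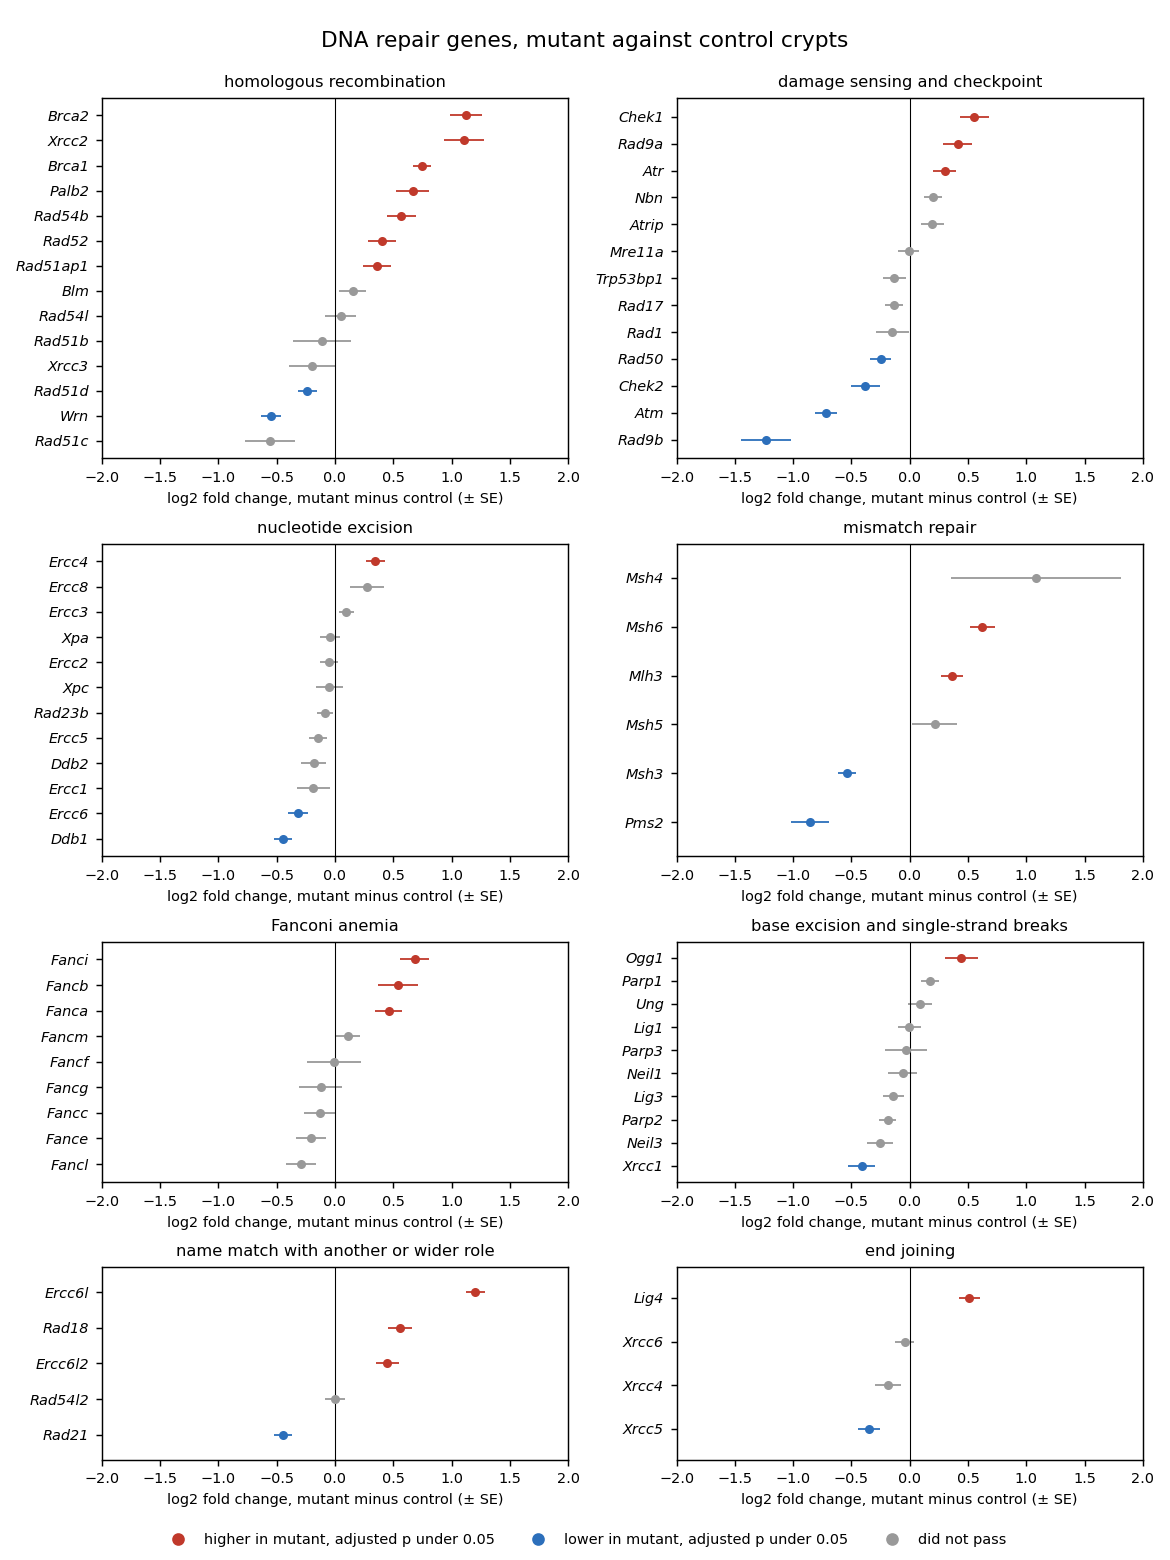
Log2 fold change of the tested repair genes reported here, mutant minus control, with its standard error (x axis) and genes grouped by role (panels), red where the gene was higher and blue where it was lower at an adjusted p under 0.05. Brca2, Xrcc2 and Ercc6l lie past 1 on the right in red, as does Msh4 without passing, Rad9b lies past -1 on the left, and mismatch repair divides into genes on both sides.

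In homologous recombination 7 of 15 members rose (46.7%, against 23.5% of all tested genes), 2 fell (13.3%, against 22.8%) and 6 did not pass. Brca2 (chr5:150522630-150570329, plus strand), whose product mediates strand invasion at resected breaks, had 38.4, 30.3 and 36.7 CPM in mutants 1 to 3, against 14.2, 19.7 and 14.6 CPM in controls 1 to 3. Every mutant library lay above every control, and Brca2 rose (log2 fold change 1.12, SE 0.14, adjusted p = 1.51e-04). Brca1 (chr11:101488764-101551955, minus strand), the ubiquitin ligase that directs breaks to recombination, had 38.3, 37.4 and 36.6 CPM in mutants 1 to 3, against 21.7, 23.8 and 21.3 CPM in controls 1 to 3. It rose too (log2 fold change 0.75, SE 0.075, adjusted p = 4.29e-05), with mutants all above controls. Palb2, which bridges both proteins, rose as well (log2 fold change 0.67, adjusted p = 0.00387). 

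The genes Rad51b, Rad51c, Rad51d, Xrcc2 and Xrcc3, whose products form complexes that assist strand exchange, were called in both directions. Xrcc2 had 8.81, 6.68 and 9.22 CPM in mutants 1 to 3, against 3.68, 3.53 and 4.26 CPM in controls 1 to 3. All mutants were above all controls, and Xrcc2 rose (log2 fold change 1.11, SE 0.17, adjusted p = 5.80e-04). Its partner gene Rad51d fell slightly (log2 fold change -0.24, adjusted p = 0.0378), although the call was lost in 4 of 6 fits that each left out 1 library, with an adjusted p of up to 0.119, and DESeq2 did not call it (adjusted p = 0.0836). Rad51c had a log2 fold change of -0.56 without passing (adjusted p = 0.0572, and 0.0425 without mutant 1), and Rad51b and Xrcc3 had -0.11 and -0.20 without passing. RAD51B, RAD51C, RAD51D and XRCC2 are known to sit in a single complex.

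**Figure D2:**
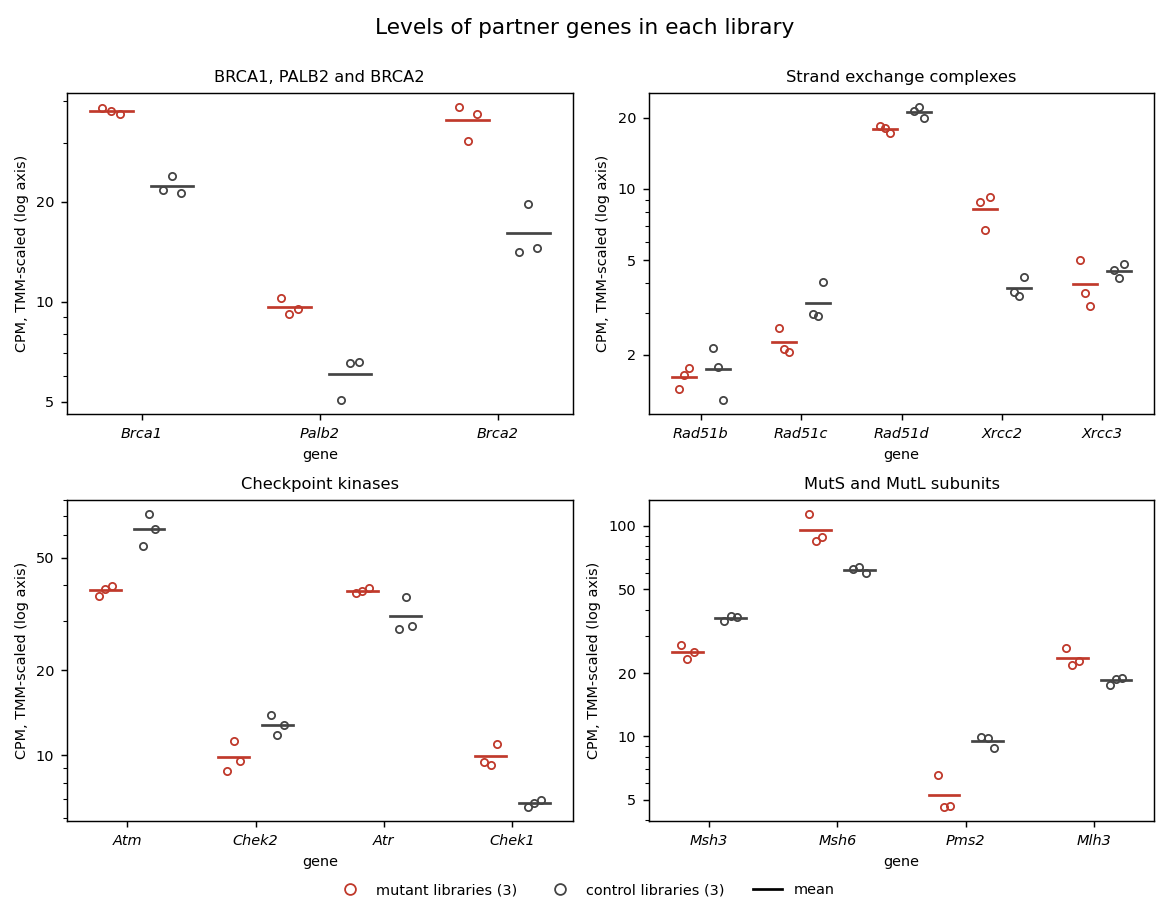
TMM-scaled CPM (log axis) of genes whose proteins work together, with 1 open circle per library, mutants in red to the left of controls in grey, and a bar at the mean of each group of 3. Xrcc2, Brca1, Brca2, Palb2, Chek1, Msh6 and Mlh3 lie higher in mutants, Atm, Chek2, Msh3 and Pms2 lie lower, and Rad51b and Xrcc3 overlap.

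Among the other recombination genes, Rad54b, a motor protein of strand exchange, rose by 0.57 on the log2 scale (adjusted p = 0.00404, and 0.0595 without mutants 1 and 2), and its close relative Rad54l stood at 0.050 (adjusted p = 0.780). Of the exonic bases of Rad54b 35.8% (GENCODE vM25) are shared with Fsbp on the same strand, where overlapping reads count for neither gene, so its level is uncertain. Rad52 and Rad51ap1, which act in strand annealing and pairing, rose by 0.40 and 0.36. For Rad52 the call was lost in 4 of 6 fits that each left out 1 library, with an adjusted p of up to 0.0838. For Rad51ap1 the call was lost in 4 of 6 fits that each left out 1 library, with an adjusted p of up to 0.111. Wrn, the RecQ helicase gene mutated in Werner syndrome, had 23.6, 23.3 and 26.7 CPM in mutants 1 to 3, against 33.2, 36.8 and 37.7 CPM in controls 1 to 3. All mutants lay below all controls, and Wrn fell (log2 fold change -0.55, SE 0.086, adjusted p = 6.56e-04). Blm, the RecQ helicase gene mutated in Bloom syndrome, had a log2 fold change of 0.15 (adjusted p = 0.312).

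Many recombination genes are transcribed in S phase, so the S phase and replication genes are set beside them. Of 34 such genes 13 rose (38.2%, against 23.5% of all tested genes), 2 fell (5.88%, against 22.8%) and 19 did not pass. In either direction 44.1% were called, against 46.3% of all tested genes. Their median log2 fold change was 0.17 (0.0063 in all genes). Pold1, the catalytic subunit of DNA polymerase delta, averaged 37.7 ± 2.31 CPM in mutants and 21.6 ± 1.33 CPM in controls (SD, n = 3 each; log2 fold change 0.80, SE 0.081, adjusted p = 4.67e-05). Tk1, Ccne1 and Mcm10, for thymidine kinase, cyclin E1 and a replication initiation factor, rose by 0.63, 0.72 and 0.48. Of 25 genes of G2 and mitosis 7 rose (28%, against 23.5% of all tested genes) and 3 fell (12%, against 22.8%), with a median of 0.0037. Birc5, which encodes survivin, and Cdk1 rose by 0.55 and 0.34, while Nusap1 and Hmmr, both of the mitotic spindle, had -0.49 and -0.38 and fell. The S phase genes that rose numbered 7 without control 1, 8 without control 2, 7 without control 3 and 8 without mutant 1, and those of G2 and mitosis numbered 4 without control 3, mutant 1 or mutant 3. Without mutants 1 and 2 there were 4 S phase genes that rose and 2 that fell, and 3 of G2 and mitosis that rose and 6 that fell. The part of the cell cycle in the calls of recombination genes was not tested.

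In damage sensing 3 of 13 members rose (23.1%, against 23.5% of all tested genes), 4 fell (30.8%, against 22.8%) and 6 did not pass. The kinase genes Atm and Chek2 fell, and Atr and Chek1 rose. Atm (chr9:53439149-53536740, minus strand), the kinase that answers double-strand breaks, had 36.6, 38.9 and 39.7 CPM in mutants 1 to 3, against 55.1, 71.3 and 63.2 CPM in controls 1 to 3. No mutant reached the lowest control, and Atm fell (log2 fold change -0.72, SE 0.096, adjusted p = 2.49e-04). Chek2, the kinase that ATM activates, had a log2 fold change of -0.38 (adjusted p = 0.0296), though the call was lost in 4 of 6 fits that each left out 1 library, with an adjusted p of up to 0.0922. Chek1, the kinase downstream of ATR, had 9.47, 9.28 and 11.0 CPM in mutants 1 to 3, against 6.59, 6.80 and 6.94 CPM in controls 1 to 3. All mutants were above all controls, and Chek1 rose (log2 fold change 0.55, SE 0.12, adjusted p = 0.00504). Atr (chr9:95857597-95951781, plus strand), which answers stalled forks, had 37.5, 38.3 and 39.0 CPM in mutants 1 to 3, against 28.0, 36.5 and 28.7 CPM in controls 1 to 3. Control 2 stood close under the mutants, and Atr rose by 0.30 (adjusted p = 0.0367). For Atr the call was lost in 5 of 6 fits that each left out 1 library, with an adjusted p of up to 0.164. Its partner Atrip did not pass (log2 fold change 0.20, adjusted p = 0.126), with 16.0% of its exonic bases shared with Trex1 on the same strand.

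RAD9 proteins form the clamp that is loaded at damaged DNA. Rad9b had 1.78, 2.64 and 1.83 CPM in mutants 1 to 3, against 5.74, 4.42 and 4.48 CPM in controls 1 to 3, every mutant below every control, and fell (log2 fold change -1.23, SE 0.22, adjusted p = 0.00124). Rad9a, the widely expressed relative, had 8.93, 10.6 and 8.91 CPM in mutants 1 to 3, against 7.13, 7.33 and 6.90 CPM in controls 1 to 3 and rose (log2 fold change 0.41, SE 0.13, adjusted p = 0.0230), although the call was lost in 4 of 6 fits that each left out 1 library, with an adjusted p of up to 0.0924. Per length (RPKM, CPM per kb of exon), the mean level of Rad9a was 4.01 RPKM in mutants and 3.02 RPKM in controls, and that of Rad9b was 0.482 RPKM in mutants and 1.13 RPKM in controls. The clamp subunit Rad1 and the clamp loader Rad17 had log2 fold changes of -0.15 and -0.13 and did not pass. In the MRN complex, which holds broken ends, Rad50 fell by 0.25 (adjusted p = 0.0431), although the call was lost in 4 of 6 fits that each left out 1 library, with an adjusted p of up to 0.130. Nbn (0.20, adjusted p = 0.0511) and Mre11a (-0.0095, adjusted p = 0.942) did not pass. Nbn passed under RLE scaling (adjusted p = 0.0484) and with the count filter of the member rule (adjusted p = 0.046). Trp53bp1, which steers breaks toward end joining and so opposes BRCA1, had 49.2, 46.7 and 39.8 CPM in mutants 1 to 3, against 45.1, 51.4 and 51.9 CPM in controls 1 to 3. The ranges overlapped (log2 fold change -0.13, adjusted p = 0.287), though mutant 3 against the controls alone gave an adjusted p of 0.0450 in the lower direction.

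In mismatch repair 2 of 8 genes rose (25%, against 23.5% of all tested genes), 4 fell (50%, against 22.8%) and 2 did not pass. MSH6 serves in finding base mismatches and MSH3 in finding longer loops. Msh6 (chr17:87975062-87990892, plus strand) had 114, 84.5 and 88.6 CPM in mutants 1 to 3, against 62.4, 63.6 and 60.01 CPM in controls 1 to 3. Mutant 1 was highest, all mutants lay above all controls, and Msh6 rose (log2 fold change 0.62, SE 0.11, adjusted p = 0.00114). Msh3 (chr13:92211872-92355003, minus strand) had 27.2, 23.3 and 25.1 CPM in mutants 1 to 3, against 35.4, 37.5 and 36.9 CPM in controls 1 to 3, again with no overlap, and fell (log2 fold change -0.54, SE 0.079, adjusted p = 4.40e-04). Per length, Msh6 stood at 22.0 RPKM in mutants and 14.3 RPKM in controls and Msh3 at 2.24 RPKM in mutants and 3.25 RPKM in controls.

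The MutL genes, whose products act after MutS has bound a mismatch, were called in both directions as well. Pms2 had 6.53, 4.64 and 4.65 CPM in mutants 1 to 3, against 9.90, 9.85 and 8.81 CPM in controls 1 to 3, with mutants all below controls, and fell (log2 fold change -0.86, SE 0.16, adjusted p = 0.00202). Mlh3, another MutL gene, rose by 0.36 (adjusted p = 0.0108, and 0.100 without mutants 1 and 2). Of the exonic bases of Pms2 5.90% are shared with other genes on the same strand. Msh4 and Msh5, which act in meiosis, did not pass, and Msh4 had 0.0541 RPKM in mutants and 0.0258 RPKM in controls.

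In the Fanconi anemia group 3 of 9 genes rose (33.3%, against 23.5% of all tested genes), none fell (22.8% of all) and 6 did not pass. DESeq2 and limma-voom called none lower either, and at an unadjusted p under 0.05 by edgeR there were 4 of 9, the fourth being Fancl in the lower direction. Fanci, whose product is clamped onto DNA with FANCD2, had 13.2, 17.4 and 14.1 CPM in mutants 1 to 3, against 8.93, 9.23 and 9.62 CPM in controls 1 to 3. All mutants exceeded all controls, and Fanci rose (log2 fold change 0.68, SE 0.12, adjusted p = 0.00148). Fanca had 19.3, 18.6 and 15.5 CPM in mutants 1 to 3, against 14.2, 12.1 and 12.5 CPM in controls 1 to 3 and rose (log2 fold change 0.46, SE 0.11, adjusted p = 0.00839), with an adjusted p of 0.247 without mutants 1 and 2. Fancb, an X-linked gene of the same core complex as Fanca, had 4.33, 4.32 and 4.43 CPM in mutants 1 to 3, against 2.57, 3.09 and 3.32 CPM in controls 1 to 3 and rose (log2 fold change 0.54, SE 0.17, adjusted p = 0.0259). For Fancb the call was lost in 4 of 6 fits that each left out 1 library, with an adjusted p of up to 0.0861, and without mutants 1 and 2 it was 0.138. The other core genes Fancc, Fance, Fancf, Fancg and Fancl had log2 fold changes between -0.29 and -0.0062 and did not pass. Fancm, the motor protein that recruits the core, stood at 0.11 (adjusted p = 0.410).

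End joining showed 1 gene higher, 1 lower and 2 that did not pass, that is 50% called, against 46.3% of all tested genes. Lig4, the ligase that seals the ends, had 29.0, 24.9 and 30.1 CPM in mutants 1 to 3, against 20.00, 19.5 and 19.5 CPM in controls 1 to 3. All mutants were above all controls, and Lig4 rose (log2 fold change 0.51, SE 0.089, adjusted p = 0.00120). Its scaffold partner Xrcc4 did not pass (log2 fold change -0.19, adjusted p = 0.206). The Ku heterodimer binds the ends first. Xrcc5, for Ku80, had 24.7, 23.7 and 24.2 CPM in mutants 1 to 3, against 31.4, 33.8 and 27.2 CPM in controls 1 to 3 and fell (log2 fold change -0.35, SE 0.090, adjusted p = 0.0105), with an adjusted p of 0.0657 without mutants 1 and 2. Xrcc6, for Ku70, had a log2 fold change of -0.043 and did not pass (adjusted p = 0.693).

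In base excision and single-strand break repair 1 of 10 tested genes rose, 1 fell and 8 did not pass. That is 20% called, against 46.3% of all tested genes. Ogg1, the glycosylase for oxidised guanine, had 8.74, 6.92 and 8.07 CPM in mutants 1 to 3, against 5.88, 6.05 and 5.52 CPM in controls 1 to 3 and rose (log2 fold change 0.44, SE 0.14, adjusted p = 0.0265), although the call was lost in 5 of 6 fits that each left out 1 library, with an adjusted p of up to 0.104. Xrcc1, the scaffold of single-strand break repair, had 21.9, 25.9 and 20.3 CPM in mutants 1 to 3, against 31.1, 26.2 and 33.2 CPM in controls 1 to 3 and fell (log2 fold change -0.41, SE 0.12, adjusted p = 0.0153), and the call was lost without control 3 (adjusted p = 0.0594) and without mutant 3 (adjusted p = 0.0646). Parp1, the main sensor of strand breaks, had 76.8, 65.6 and 66.4 CPM in mutants 1 to 3, against 61.3, 59.1 and 64.8 CPM in controls 1 to 3. Its groups did not overlap, but the change was small and did not pass (log2 fold change 0.17, adjusted p = 0.106). Lig1 and Ung, for the replication ligase and the uracil glycosylase, had log2 fold changes of -0.0022 and 0.087 and did not pass. Parp2, Neil3 and Lig3 did not pass either, at -0.19, -0.25 and -0.14, but all 3 passed in the lower direction without mutants 1 and 2 (adjusted p = 0.0467, 0.0468 and 0.0181), and Parp2 passed without mutant 2 (adjusted p = 0.0460). Under upper quartile scaling Parp2 passed too (adjusted p = 0.0462). Neil2, untested, had 0.0255 RPKM in mutants and 0.110 RPKM in controls.

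Of 13 nucleotide excision genes 1 rose, 2 fell and 10 did not pass, that is 23.1% called, against 46.3% of all tested genes. Ddb1 (chr19:10605327-10629819, plus strand), the adaptor that links damage recognition to the CUL4 ubiquitin ligase, had 295, 264 and 256 CPM in mutants 1 to 3, against 365, 368 and 379 CPM in controls 1 to 3. All mutants lay below all controls, and Ddb1 fell (log2 fold change -0.45, SE 0.079, adjusted p = 0.00134). It was second in abundance per length among members in both groups, at 42.4 RPKM in mutants and 57.8 RPKM in controls, while its partner Ddb2 did not pass (log2 fold change -0.18, adjusted p = 0.191). Ercc6, the CSB protein of transcription-coupled repair, had 32.1, 34.7 and 29.4 CPM in mutants 1 to 3, against 36.9, 42.1 and 40.4 CPM in controls 1 to 3 and fell (log2 fold change -0.31, SE 0.086, adjusted p = 0.0139), a call lost without mutant 3 (adjusted p = 0.0596). Ercc8, which acts in the same branch, had a log2 fold change of 0.27 and did not pass. Ercc4, the catalytic subunit of the nuclease that cuts 5′ of the lesion, had 33.1, 32.7 and 31.4 CPM in mutants 1 to 3, against 26.7, 26.7 and 22.9 CPM in controls 1 to 3 and rose (log2 fold change 0.35, SE 0.083, adjusted p = 0.00686), with an adjusted p of 0.127 without mutants 1 and 2. The other subunit, Ercc1, did not pass (-0.19, adjusted p = 0.317). Xpc, the damage sensor of the global branch, had 29.6, 24.5 and 23.7 CPM in mutants 1 to 3, against 23.6, 26.7 and 30.2 CPM in controls 1 to 3. The ranges overlapped, and it did not pass (log2 fold change -0.050, adjusted p = 0.748). The TFIIH helicase genes Ercc2 and Ercc3 and the lesion verifier Xpa had log2 fold changes of -0.049, 0.097 and -0.042 and did not pass.

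The last 5 tested members share a name with repair genes but are known for other or wider work. Ercc6l (chrX:102141716-102157091, minus strand), for the PICH translocase that binds the DNA threads stretched between chromosomes in anaphase, had 28.3, 27.2 and 27.0 CPM in mutants 1 to 3, against 11.7, 11.3 and 12.7 CPM in controls 1 to 3. Every mutant exceeded every control, and Ercc6l rose with the smallest p of the 77 tested members (log2 fold change 1.20, SE 0.084, adjusted p = 5.09e-06). It is X-linked, and without mutants 1 and 2 its adjusted p was 2.10e-04. Rad18, the ubiquitin ligase that marks PCNA at stalled forks, had 13.99, 13.3 and 12.3 CPM in mutants 1 to 3, against 9.13, 9.17 and 8.61 CPM in controls 1 to 3 and rose (log2 fold change 0.56, SE 0.10, adjusted p = 0.00190), with an adjusted p of 0.0530 without mutants 1 and 2. Ercc6l2, a helicase-like gene, had 50.5, 48.6 and 59.5 CPM in mutants 1 to 3, against 35.6, 43.2 and 37.4 CPM in controls 1 to 3 and rose (log2 fold change 0.45, SE 0.10, adjusted p = 0.00512). Rad21 (chr15:51962240-51991747, minus strand), the cohesin subunit that closes the ring around sister chromatids, had 262, 234 and 228 CPM in mutants 1 to 3, against 333, 319.9 and 334 CPM in controls 1 to 3. It was the most abundant member per length in both groups, at 57.0 RPKM in mutants and 77.7 RPKM in controls, and fell (log2 fold change -0.45, SE 0.079, adjusted p = 0.00128). Rad54l2, a chromatin remodeller of the SNF2 family, did not pass (log2 fold change -0.00071, adjusted p = 0.996).

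Several members that rose have a very long coding exon, a feature that the choice of members did not use but that was looked for after the calls were seen. As background, m6A is known to be frequent in long internal exons and near stop codons, and these libraries did not measure it. The longest stretch of coding sequence within 1 exon was taken from GENCODE vM21, which is on the same build as the files. The 4 longest were those of Brca2 (exon 11, 4809 bp, 48.2% of its coding length), Ercc6l (exon 2, 3652 bp), Brca1 (exon 10 in that annotation, 3315 bp) and Mlh3 (exon 2, 3259 bp). Lig4, with its whole coding sequence of 2733 bp in 1 exon, Msh6 (exon 4, 2536 bp) and Palb2 (exon 4, 1395 bp) followed among genes that rose. Of the 11 members with a coding exon of at least 1000 bp these 7 rose, none fell and 4 did not pass. The 4 were Fancm (1864 bp), Trp53bp1 (1297 bp), Ercc5 (1074 bp) and Fancf (1029 bp), whose whole coding sequence is also 1 exon, and DESeq2 and limma-voom likewise called 7 higher and none lower. At an unadjusted p under 0.05 none of the 4 counted as lower. Without mutants 1 and 2 there were 6 that rose and 1 that fell, Trp53bp1.

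**Figure D3:**
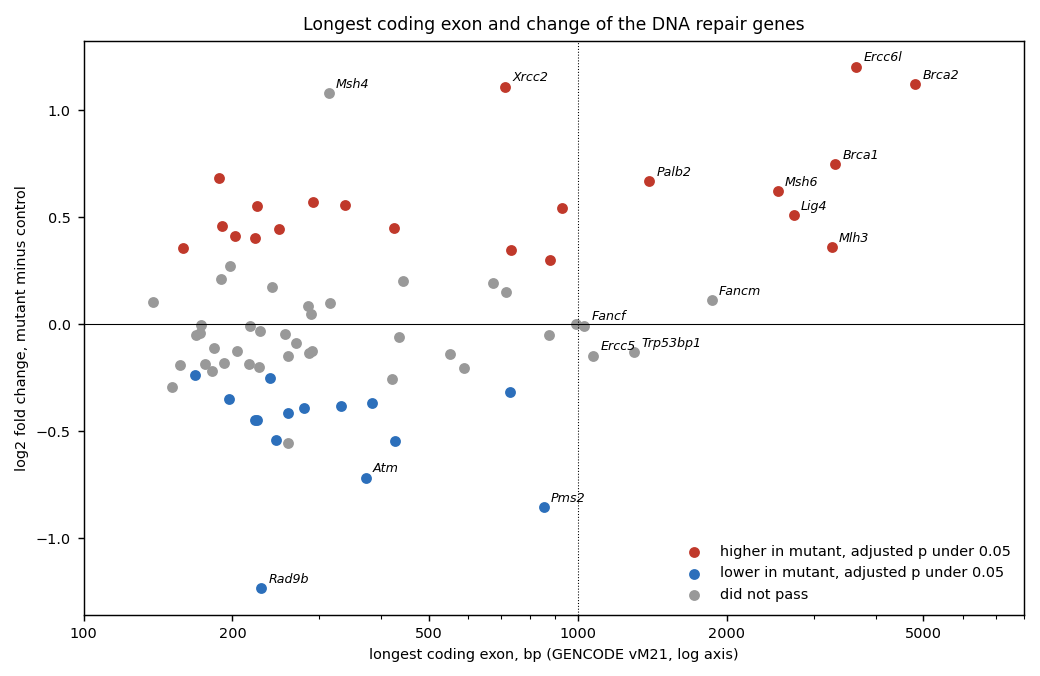
Longest coding exon of each tested member (x axis, bp, log scale) against its log2 fold change, mutant minus control (y axis), 1 point per gene, coloured by the test, with a dotted line at 1000 bp. Of the 11 genes right of the line 7 are red and none is blue, while 13 of the 54 genes under 500 bp are blue.

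Among 12 members whose longest coding exon had at least 500 and under 1000 bp 4 rose (33.3%) and 2 fell (16.7%). Both are near the shares of the 2468 tested genes of that class, of which 34.2% rose and 20.4% fell. Under 500 bp 10 of 54 members rose (18.5%) and 13 fell (24.1%). The median longest coding exon was 713 bp in members that rose, 259 bp in members that fell and 259 bp in members that did not pass. The same order held for all 14240 tested genes with a coding exon in that annotation: of 2071 genes with one of at least 1000 bp 37.3% rose and 18.6% fell, and of 9701 genes under 500 bp 21.9% rose and 29.6% fell. The median log2 fold change was 0.16 in the long class and -0.068 in the short class, against 0.51 and -0.099 among members. Across the 77 members Pearson's r between the log2 of that length and the log2 fold change was 0.412 and Spearman's rho 0.269, and across all 14240 genes they were 0.113 and 0.147. With the exonic length of the whole gene in its place r was 0.121 across members and -0.078 across all genes. These correlations are across genes of the same 6 libraries, which are not independent replicates, and the length classes were chosen after the calls were known.

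**Figure D4:**
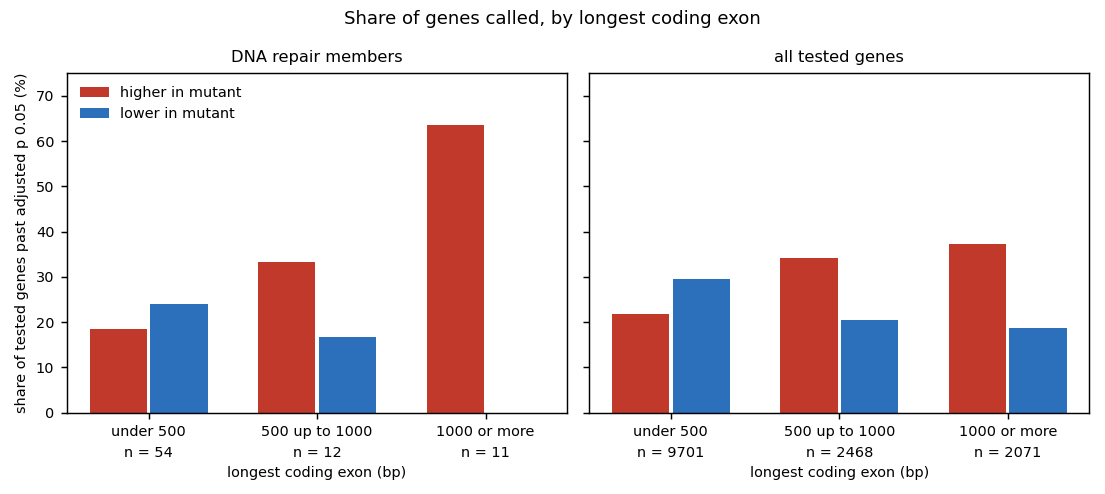
Share of tested genes that were higher (red) or lower (blue) in mutants at an adjusted p under 0.05 (y axis, %), by longest coding exon (x axis, bp), for the 77 repair members on the left and the 14240 genes with a coding exon, members included, on the right. The red bars increase toward long exons in both panels, to 63.6% of 11 members and 37.3% of 2071 genes.

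Other repair genes lie outside the name rule. Of 88 tested genes of the same pathways 12 rose (13.6%, against 23.5% of all tested genes), 17 fell (19.3%, against 22.8%) and 59 did not pass. That is 33.0% called where 46.3% of all genes were, with a median log2 fold change of -0.048, and 11 fell without mutant 3. Fen1, the flap endonuclease of replication and base excision, had 92.0, 78.9 and 83.8 CPM in mutants 1 to 3, against 29.2, 29.0 and 28.2 CPM in controls 1 to 3. All mutants were above all controls by a wide margin, and Fen1 rose (log2 fold change 1.56, SE 0.076, adjusted p = 5.80e-07). Apex1, the nuclease that cuts at abasic sites, averaged 57.9 ± 4.54 CPM in mutants and 25.1 ± 2.11 CPM in controls (log2 fold change 1.20, SE 0.088, adjusted p = 7.08e-06), and Exo1, the exonuclease of mismatch repair and end resection, averaged 27.7 ± 1.81 CPM in mutants and 10.9 ± 2.03 CPM in controls (log2 fold change 1.35, SE 0.13, adjusted p = 3.16e-05). These 3 had larger log2 fold changes than Brca2. Hltf, a helicase-like ubiquitin ligase of damage tolerance, averaged 35.0 ± 1.45 CPM in mutants and 54.4 ± 3.04 CPM in controls and fell (log2 fold change -0.64, SE 0.072, adjusted p = 9.34e-05).

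Targets of p53, which respond to unrepaired damage among other stresses, are given beside the repair genes. Of 23 such genes 11 rose (47.8%, against 23.5% of all tested genes) and 2 fell (8.7%, against 22.8%). In either direction 56.5% were called, against 46.3% of all tested genes, and their median log2 fold change was 0.092. Gdf15, a stress cytokine, averaged 23.2 ± 1.13 CPM in mutants and 1.75 ± 0.329 CPM in controls (log2 fold change 3.73, SE 0.14, adjusted p = 1.37e-07), and Phlda3, an inhibitor of AKT, averaged 12.7 ± 2.34 CPM in mutants and 1.13 ± 0.544 CPM in controls (log2 fold change 3.50, SE 0.30, adjusted p = 1.56e-05). Aen, an apoptotic nuclease, rose by 0.75 and Trp53inp1 fell by 1.09 on the log2 scale. Ddb2 and Xpc, members that p53 is known to induce in human cells, did not pass, as given above. Trp53 itself, named after its values were seen, averaged 31.5 ± 1.27 CPM in mutants and 32.4 ± 0.612 CPM in controls (adjusted p = 0.664).

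Of the members that rose 15, and of those that fell 10, kept their call in all 6 fits that each left out 1 library. Those that rose were Brca1, Brca2, Palb2, Xrcc2, Rad54b, Chek1, Fanca, Fanci, Lig4, Ercc4, Msh6, Mlh3, Rad18, Ercc6l and Ercc6l2, and those that fell were Atm, Rad9b, Wrn, Xrcc5, Ddb1, Msh3, Pms2 and Rad21 among others. Atr kept its call only when control 2 was left out, and Ogg1 only when mutant 2 was. Chek2 kept it without control 2 or mutant 2, Fancb without control 3 or mutant 1, Rad50 without control 1 or mutant 1, Rad51ap1 without control 2 or mutant 1, Rad51d without control 3 or mutant 1, Rad52 without control 1 or mutant 3, and Rad9a without mutant 1 or mutant 3. Against a null of a 1.5-fold change (edgeR's glmTreat), Brca1, Brca2, Xrcc2 and Ercc6l were called higher and Rad9b lower, with adjusted p = 0.0483, 0.00411, 0.0131, 1.00e-04 and 0.0159.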

How the data were processed

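The authors deposited raw counts per gene, in a file for each library. The submitters' processing notes name Trim Galore 0.6.5, STAR 2.6.1d and the build GRCm38. Fragments were counted on the strand of read 1 by featureCounts 1.6.4 on GENCODE vM25, per the file headers. No header option counts multi-mapped or multi-overlapping reads, so near-identical or overlapping genes lose reads. Polyadenylated RNA went into stranded SMARTer libraries, per the labels' protocols.

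From these counts, edgeR 4.0.16 in R 4.3.3 tested mutant against control (filterByExpr, TMM, quasi-likelihood F test, 2-sided, genotype as the only term, Benjamini-Hochberg over all 18539 tested genes, threshold 0.05). The SE is the size of the log2 fold change divided by the square root of F. RPKM is the TMM-scaled CPM per kb of exon. Nothing says that libraries came from separate animals beyond the design text's pairs of mice, so p-values measure the spread between libraries. Pairs of libraries within a group differed by a chi-square per gene of 14 to 90.8, more than counting error alone gives. The source of that spread, technical or between animals, was not tested. A count of 0 allows a level of 0.0853 to 0.124 CPM (3 counts), depending on the library, for counting error only.

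Members, role groups and lists were chosen with earlier results of these data known. Per-library values are given for up to 4 members per role group with the smallest p past the threshold, and always for Brca1, Brca2, Atm, Atr, Trp53bp1, Chek1, Xpc and Parp1, and from each list up to 4 genes with the smallest p are named. A few genes that enter the counts are not reported here by name. Of 90 other repair genes listed 89 were found, and Polk is also on the list of p53 targets. Same-numbered libraries did not deviate together (correlations -0.120, -0.0652 and -0.138), so numbers were not taken as pairs. Alternatives used DESeq2 1.42.0, limma 3.58.1, other scalings and filters, and left-out libraries. The fits were tested on simulated counts.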

Additional observations from a re-analysis of the deposited data

How the results depend on the processing

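Among members, the 21 calls higher and 15 lower in mutants stayed between 16 and 22 higher and 12 and 17 lower under other scalings (RLE, upper quartile), filters, DESeq2, limma-voom and the replicate block, and no member or other named gene reversed with a call. With the replicate block 18 members rose and 12 fell, Mettl14 had a log2 fold change of -0.85 (adjusted p = 9.61e-04), 1 S phase gene fell and 4 G2 and mitosis genes rose; the block changed calls of Ogg1, Rad50, Chek2, Fancb, Rad51ap1 and Rad51d and of no other named gene. Against a 1.5-fold null, counts are smaller by construction: 1720 genes rose and 1027 fell, with 4 and 1 members, 3 and 0 other repair genes, 1 and 0 S phase genes, 0 and 0 G2 and mitosis genes, 4 and 1 p53 targets and 3 members with a long coding exon, and Mettl14 did not pass (log2 fold change -0.85, adjusted p = 0.0612). Without mutants 1 and 2, the lone mutant was assumed to vary like the controls; 16.2% of 20731 genes rose and 17.0% fell, 10 members rose and 17 fell, 4 S phase genes rose, 3 G2 and mitosis genes rose and 6 fell, 1 member with a long coding exon fell, and the cause was not tested. Leaving out 1 library at a time gave 16 to 18 members higher and 11 to 17 lower, 11 to 16 other repair genes lower (11 without mutant 3), 7 to 12 S phase genes higher and 0 to 2 lower, and 4 to 8 G2 and mitosis genes higher and 3 to 5 lower. Of the other scalings, upper quartile shifted the log2 fold changes of all genes most, with a median shift of -0.0121. Msh4 and Neil2 rest on 1 to 24 counts per library.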
